A study of Mus musculus with 7 samples.

Results

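The 10 genes described here encode the main cytosolic chaperones of the Hsp70, Hsp90 and Hsp110 families, together with a J-domain partner and the transcription factor that controls many of them: Hspa1a, Hspa1b, Hspa8, Hspa4, Hspa4l, Hsph1, Hsp90aa1, Hsp90ab1, Dnajb1 and Hsf1. They were taken by name after the Ensembl identifiers of the count table had been matched to mouse gene symbols. All 10 were found among 20927 entries, and all 10 passed the filter on low counts that left 13894 genes for testing.

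RNA sequencing was carried out on left ventricles of 7 mice, 3 WT (replicates 1, 3 and 4) and 4 homozygous for the titin missense change A178D (replicates 1 to 4). Titin is the giant elastic protein of the sarcomere, and the question addressed was which transcripts differ between hearts with and without the change. The allele was made by CRISPR editing in C57BL/6N embryonic stem cells (JM8F6) and crossed to C57BL/6J, the strain given for both groups. Age and sex of the sequenced animals were not given in the labels, and every A178D animal carried the change in all cells, so an effect arising in the cardiomyocyte and an effect arising elsewhere cannot be told apart. WT replicates 1, 3 and 4 held 51797208, 54245530 and 41102868 counts, and A178D replicates 1 to 4 held 40623300, 52345529, 42174448 and 33080675 counts.

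Hsp70 proteins bind short hydrophobic stretches of unfolded protein in cycles of ATP hydrolysis. J-domain proteins such as Dnajb1 deliver the substrate and trigger the hydrolysis, and Hsp110 proteins such as Hsph1 release the nucleotide so that the cycle can restart. Hsp90 acts later, on proteins that are nearly folded, and in striated muscle it works with myosin-specific partners. Hsf1 is held inactive by chaperones in resting cells, and during heat or proteotoxic stress it binds heat shock elements, repeats of GAA and TTC units, in the promoters of its targets. Hspa8 and Hsp90ab1 are the constitutive forms of Hsp70 and Hsp90, whereas Hspa1a and Hspa1b are classically induced from a very low level by stress.

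The libraries carried the transcripts of ventricular muscle. Myl2, the ventricular regulatory light chain, ranged from 11942 to 14103 CPM (counts scaled to library size after trimmed mean of M-values normalization), and Myl3 from 5983 to 7640 CPM. The atrial light chain Myl7 did not exceed 0.152 CPM, Sln not 0.0991 CPM, and Bmp10 was at 0 in all 7 libraries. Acta1 and Nppa, skeletal actin and atrial natriuretic peptide, are foetal genes that return in stressed ventricles. Acta1 rose by a log2 fold change of 2.64 ± 0.29 (SE; edgeR adjusted p = 0.000651) and Nppa by 1.31 ± 0.24 (adjusted p = 0.0146). The call of Nppa was lost on leaving out WT replicate 3 (0.0860), WT replicate 4 (0.0598) and A178D replicate 1 (0.0555), with the adjusted p in parentheses.

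The libraries of A178D replicate 4 and WT replicate 1 stood apart by transcript length. Over 13893 tested genes the rank correlation of exon length with the level of a library around the mean of all 7 was -0.455 in A178D replicate 4 and 0.340 in WT replicate 1, against -0.059 to 0.135 in the others. Genes of at least 9889 exon bases had a median of -0.20 on the log2 scale in A178D replicate 4 and 0.096 in WT replicate 1. Among the muscle genes with long transcripts, Ttn stood at 4087 CPM in A178D replicate 4 and at 5361 to 7245 CPM in the other libraries, and Ryr2 at 1520 CPM against 2126 to 2475 CPM. The cause was not tested.

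Of the 10 chaperone genes, 1 was higher in A178D hearts at an adjusted p under 0.05 in edgeR's quasi-likelihood test (Hsph1), and 0 were lower. Over all 13894 tested genes 145 were called higher, which is 1.04%, and 182 lower, which is 1.31%. These totals depended on single hearts. They were 22 higher and 31 lower without WT replicate 3, 40 and 42 without WT replicate 4, 40 and 50 without A178D replicate 1, 78 and 112 without A178D replicate 3, and 101 and 115 without A178D replicate 2. Without A178D replicate 4 they were 154 and 215, with 1 member called (Hsph1), and without WT replicate 1 they were 215 and 238, with 2 members called (Hsph1 and Hsp90aa1). With length and GC offsets they were 221 and 261, with 2 members called (Hsph1 and Hspa4l). DESeq2 called 2 of the 10 (Hsph1 and Hsp90aa1), beside 5.08% of its genes in either direction, and limma-voom 1 of the 10 (Hsph1), beside 2.35%. At an unadjusted p under 0.05, 5 of the 10 passed in edgeR, all 5 with a positive fold change (Hsph1, Hsp90aa1, Hsp90ab1, Hspa8 and Hspa4l), beside 16.7% of all genes in either direction. In CPM the values of all 4 A178D libraries lay above all 3 WT libraries for 5 of the 10 (Hspa8, Hspa4, Hspa4l, Hsph1 and Hsp90ab1), beside 7.61% of all tested genes, and below them for 0 of the 10, beside 8.52%. This count depended on the scaling: in TPM, counts per kilobase scaled to the same total in every library, it was 2 of the 10 above (Hsph1 and Hsp90ab1), beside 4.27% of genes, and 0 below, beside 11.9%. For a given gene, TPM differs from CPM only by a factor for each library. That factor depends on the exon lengths of the genes counted there. TPM therefore does not remove the length trend of A178D replicate 4 and WT replicate 1. The median log2 fold change was 0.16 over the 10 members and 0.002 over all tested genes. RNA from whole ventricle was measured, so fewer cells of a type and less RNA per cell cannot be told apart.

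**Figure D1:**
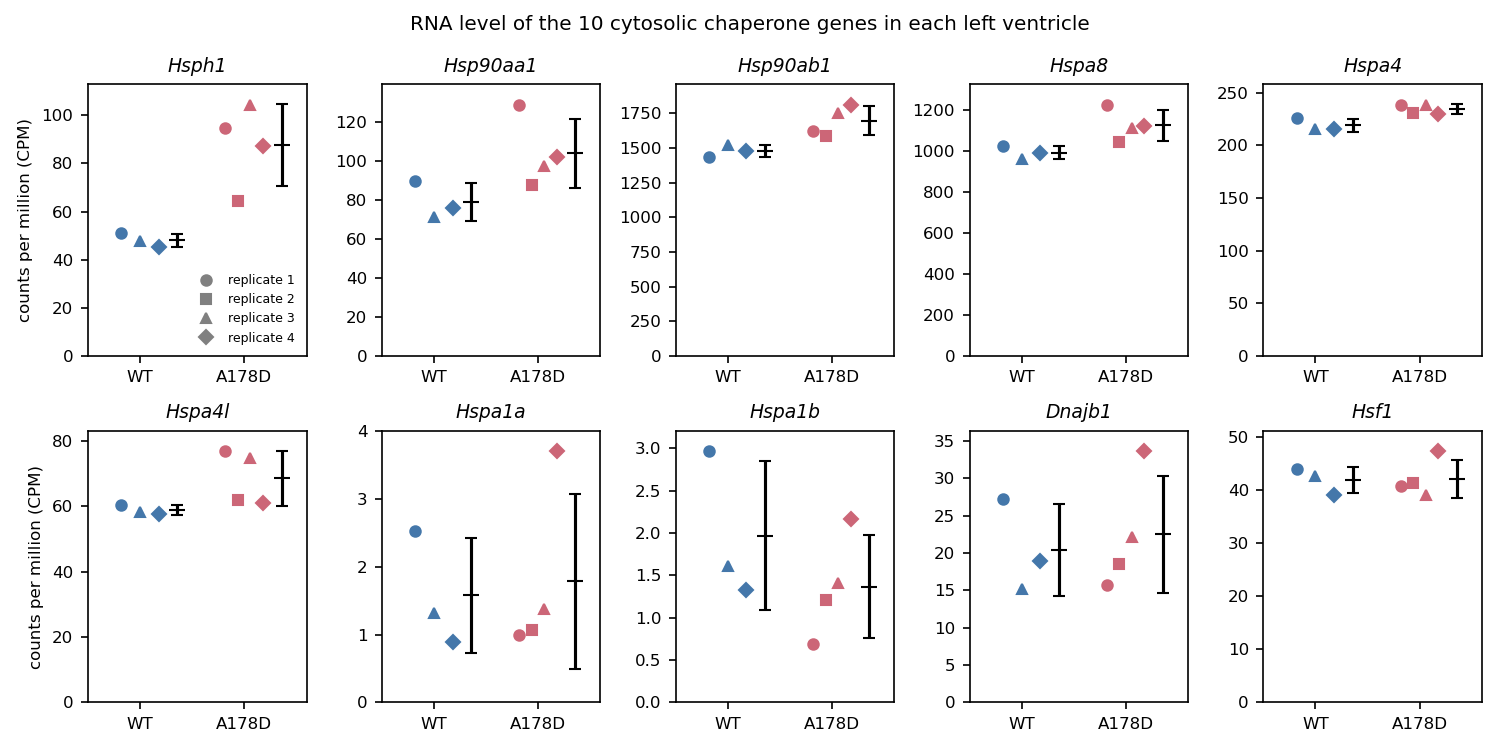
CPM of each of the 10 members in each library (circles, squares, triangles and diamonds: replicates 1, 2, 3 and 4), with WT in blue and A178D in red. Black bars give the mean and SD of 3 WT or 4 A178D libraries, and the Hsph1 values of the A178D libraries, from 64.3 CPM upwards, lay above the highest WT value of 50.9 CPM, while for Hsp90aa1, Hspa1a, Hspa1b, Dnajb1 and Hsf1 the groups overlapped.

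Hsph1 encodes Hsp105, the Hsp110 family member best known as a nucleotide exchange factor of Hsp70 that also keeps aggregated protein soluble. The gene (ENSMUSG00000029657) is protein coding and lies on the minus strand at chr5:149614287-149636376 (GRCm38). It stood at 50.9, 47.7 and 45.3 CPM in WT replicates 1, 3 and 4, and at 94.9, 64.3, 104 and 87.4 CPM in A178D replicates 1 to 4. The WT hearts were close together, the A178D hearts were all above them and more spread out, and A178D replicate 2 was nearest to WT. The mean was 48.0 ± 2.79 CPM in WT (SD, n = 3) and 87.7 ± 17.1 CPM in A178D (SD, n = 4), a log2 fold change of 0.87 ± 0.13 (SE) or 1.83-fold, at an edgeR adjusted p of 0.00564. Raw counts behind these values ran from 1842 to 4457. With each library left out in turn the log2 fold change ran from 0.77 to 1.00 and the edgeR adjusted p from 0.000618 to 0.0499.

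The remaining Hsp110-type genes, Hspa4 (Apg-2) and Hspa4l (Apg-1), did not pass the test. Hspa4 (chr11:53259814-53300457, minus strand) ranged from 215 to 225 CPM in WT and from 230 to 239 CPM in A178D, with a log2 fold change of 0.10 ± 0.06 (edgeR adjusted p = 0.459). The groups did not overlap in CPM but did in TPM, where A178D replicate 4 was the lowest of all libraries at 129 TPM and WT replicate 1 stood at 143 TPM. Hspa4l (chr3:40744495-40796103, plus strand) stood at 60.5, 58.1 and 57.7 CPM in WT, and at 76.8, 61.8, 74.7 and 60.9 CPM in A178D replicates 1 to 4. A178D replicates 1 and 3 were clearly above WT and replicates 2 and 4 just above it, so the separation of the groups rested on a gap smaller than their spread. In TPM the groups overlapped, with A178D replicate 4 at 16.0 TPM and WT replicate 1 at 18.0 TPM. Hspa4l has 11792 exon bases. Its lowest A178D values were 60.9 CPM in replicate 4 and 61.8 CPM in replicate 2. The rank correlations of these libraries with exon length were -0.455 and 0.085, in that order. The part of the length trend in the value of a single library was not tested. The log2 fold change of Hspa4l was 0.22 ± 0.09 (edgeR adjusted p = 0.237). With offsets that remove the trend with transcript length and GC content it was 0.32, at an adjusted p of 0.0355, and so passed the threshold in that setting, while over all alternatives the adjusted p ran from 0.0135 to 0.473.

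Both Hsp90 genes had positive fold changes that did not pass the adjusted threshold. Hsp90aa1 (chr12:110690605-110702728, minus strand), the stress-inducible form, stood at 89.9, 71.1 and 76.0 CPM in WT and at 129, 87.7, 97.4 and 102 CPM in A178D replicates 1 to 4. A178D replicate 1 was highest, and A178D replicate 2 lay just below WT replicate 1, so the groups overlapped by these 2 hearts. The log2 fold change was 0.40 ± 0.12 at an unadjusted p of 0.00479 and an adjusted p of 0.103 in edgeR. DESeq2 gave an adjusted p of 0.0261, and edgeR gave 0.0427 without WT replicate 1. Over all edgeR, DESeq2 and limma-voom alternatives the adjusted p ran from 0.00466 to 0.342.

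Hsp90ab1 (chr17:45567775-45573271, minus strand), the constitutive form, stood at 1432, 1522 and 1475 CPM in WT and at 1625, 1589, 1755 and 1812 CPM in A178D replicates 1 to 4. All A178D hearts were above all WT hearts, in TPM as well, and A178D replicate 2 was the lowest of its group in CPM. The log2 fold change was 0.20 ± 0.07 at an edgeR adjusted p of 0.154.

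Hspa8 (chr9:40800984-40810087, plus strand), the constitutive Hsc70, stood at 1022, 959 and 991 CPM in WT and at 1225, 1041, 1109 and 1121 CPM in A178D replicates 1 to 4. A178D replicate 1 was highest. The groups did not overlap in CPM but did in TPM, where WT replicate 1 at 835 TPM lay above A178D replicates 2 and 4 at 817 and 806 TPM. The log2 fold change was 0.18 ± 0.07 at an edgeR adjusted p of 0.204. The annotation places the small nucleolar RNA genes Snord14c, Snord14d and Snord14e within the gene on the same strand.

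The stress-inducible Hsp70 genes were barely expressed. Hspa1a (chr17:34969190-34972156) and Hspa1b (chr17:34956436-34959238), neighbours on the minus strand, had between 28 and 156 raw counts in any library. Hspa1a stood at 2.53, 1.32 and 0.886 CPM in WT and at 0.991, 1.06, 1.38 and 3.71 CPM in A178D replicates 1 to 4. Hspa1b stood at 2.97, 1.61 and 1.33 CPM in WT and at 0.694, 1.21, 1.41 and 2.16 CPM in A178D. For both genes WT replicate 1 was the highest WT heart and A178D replicate 4 the highest A178D heart, and the groups overlapped. The log2 fold changes were 0.14 ± 0.45 for Hspa1a (edgeR adjusted p = 0.919) and -0.55 ± 0.36 for Hspa1b (adjusted p = 0.481). Without A178D replicate 4 the Hspa1a value turned to -0.47 (adjusted p = 0.557), without WT replicate 4 to -0.14 (0.926), and without WT replicate 1 it was 0.65 (0.579), the largest value. With the 2 genes summed it was -0.20 ± 0.37 (adjusted p = 0.840). Over all alternatives the adjusted p of Hspa1a ran from 0.557 to 0.993. The Hspa1b value stayed negative but was -0.12 without WT replicate 1, -0.33 without A178D replicate 1 and -0.83 without A178D replicate 4, with an adjusted p from 0.252 to 0.921 over all alternatives.

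Reads of these paralogues are hard to separate. Of the 76-base windows of the Hspa1a transcript, the length of a sequenced read, 52.5% also occur in Hspa1b, so how the counts were divided between them is uncertain. Among the other members, 68.3% of the Hspa8 windows and 52.9% of the Hsp90aa1 windows occur in other annotated transcripts. These include processed pseudogenes, which had no entry of their own among the 20927 used here. The share was 0.65% for Hsp90ab1, 0.17% for Hspa4l and 0% for Hsph1, Hspa4, Dnajb1 and Hsf1. Gm20481, a gene on the opposite strand, overlaps Hspa1a. Whether the counting used strand, and how it treated reads that match several places, was not given in the sources used here. The levels of Hspa1a, Hspa1b, Hspa8 and Hsp90aa1, and every ratio that uses them, depend on that treatment.

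Dnajb1 (chr8:83608193-83612653, plus strand), the J-domain partner whose transcript is induced together with Hspa1a and Hspa1b in the heat shock response, stood at 27.2, 15.1 and 18.9 CPM in WT and at 15.7, 18.5, 22.1 and 33.6 CPM in A178D replicates 1 to 4. Here too WT replicate 1 and A178D replicate 4 were the highest of their groups. The log2 fold change was 0.13 ± 0.23 at an edgeR adjusted p of 0.821. Hsf1 (chr15:76477422-76501913, plus strand) ranged from 39.2 to 43.9 CPM in WT and from 39.1 to 47.4 CPM in A178D, a log2 fold change of 0.01 ± 0.08 at an adjusted p of 0.980. The values of both Dnajb1 and Hsf1 changed sign with single libraries left out. Dnajb1 was at -0.045 without WT replicate 3 and -0.12 without A178D replicate 4 but at 0.40 without WT replicate 1, and Hsf1 at -0.038 without WT replicate 4 and -0.052 without A178D replicate 4 but at 0.045 without WT replicate 1.

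Levels of different genes were compared per length as TPM, from merged exon lengths. These exceed the longest transcript in some members, with 7099 against 3133 bases for Hsf1 and 7266 against 4764 for Hsph1. For Dnajb1 they are closer, at 3204 against 2996 bases. The places of near neighbours, and the ratios below, depend on this choice of length. Hsp90ab1 was highest at 1778 ± 118 TPM (mean and SD over 7 libraries), followed by Hspa8 at 826 ± 60.5, Hspa4 at 137 ± 7.07 and Hsp90aa1 at 79.0 ± 15.0 TPM. These 4 genes held their order in all 7 libraries and their ranges did not overlap, as counted, but the places of Hspa8 and Hsp90aa1 depend on how shared reads were treated. Hsph1 at 32.3 ± 10.8, Dnajb1 at 22.4 ± 6.54, Hsf1 at 19.7 ± 1.24 and Hspa4l at 18.2 ± 2.28 TPM came next, and neighbours among these 4 overlapped in range. Hspa1b at 1.94 ± 0.919 and Hspa1a at 1.89 ± 1.10 TPM were lowest and overlapped each other. Only these 2 genes changed places between the group means: Hspa1b stood at 2.42 TPM in WT and 1.59 TPM in A178D, and Hspa1a at 1.83 and 1.94 TPM. The mean of Hsph1 was 22.5 TPM in WT and 39.6 TPM in A178D.

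**Figure D2:**
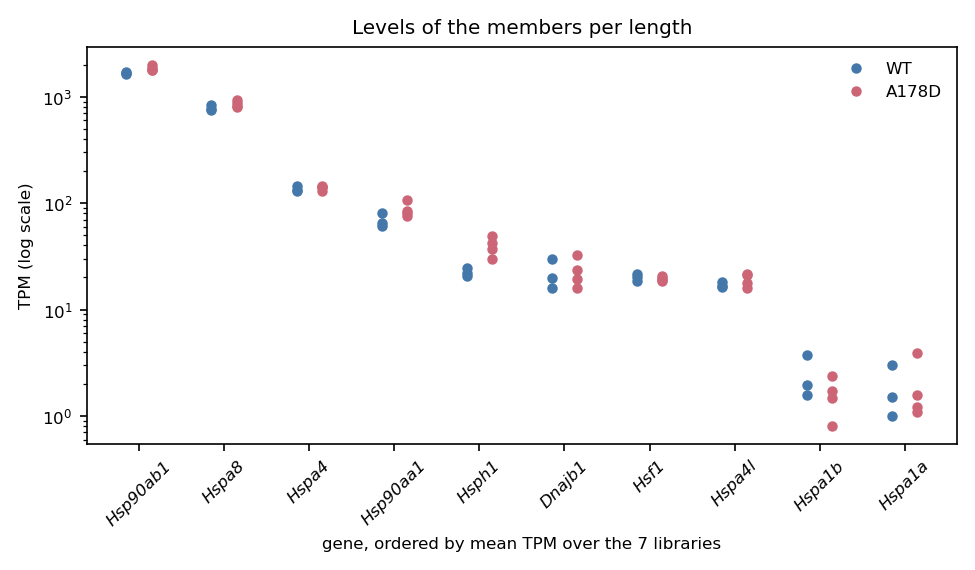
TPM of the 10 members on a log axis, each point a library, WT in blue and A178D in red, genes ordered by mean TPM over the 7 libraries. Hsp90ab1 and Hspa8 stood above the rest at means of 1778 and 826 TPM, and Hspa1b and Hspa1a stood at means of 1.94 and 1.89 TPM.

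Ratios between members, from counts per kilobase within a library, were taken as descriptions without a test. Hsph1 relative to Hspa8 was 0.0295, 0.0294 and 0.0271 in WT and 0.0458, 0.0365, 0.0557 and 0.0461 in A178D replicates 1 to 4, so its share against the constitutive Hsp70 was higher in every A178D heart. Hsp90aa1 relative to Hsp90ab1 had a mean of 0.0409 ± 0.00627 in WT (SD, n = 3) and 0.0470 ± 0.00905 in A178D (SD, n = 4). Only A178D replicate 1, at 0.0606, lay above all WT values. Hspa4l relative to Hspa4 was 0.126, 0.126 and 0.126 in WT, and in A178D it was 0.151 and 0.147 in replicates 1 and 3 but 0.125 and 0.124 in replicates 2 and 4. The A178D hearts thus fell on both sides of WT for this ratio. Hspa1a plus Hspa1b relative to Hspa8 had a mean of 0.00533 ± 0.00243 in WT and 0.00420 ± 0.00247 in A178D.

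Promoter windows from RefSeq (GRCm38.p6), 250 bases before to 50 bases after a start, were found for 6 of the 10 members, in 8 windows. They were searched on both strands for the 8-base pairs of heat shock units GAANNTTC and TTCNNGAA, each of which reads the same on either strand, and for the 3-unit elements TTCNNGAANNTTC and GAANNTTCNNGAA, which contain the pairs. Of 32817 windows in the genome 7.86% held GAANNTTC, 8.51% held TTCNNGAA and 0.603% held a 3-unit element. Both Hsph1 windows held 1 3-unit element and 3 pairs, 2 of them inside that element. The Hspa1a and Hspa1b windows, equal at 296 of 300 aligned bases, each held 1 pair and 0 3-unit elements, and the windows of Hspa4, Hspa4l and Dnajb1 held 0 of these. The Hspa4l window (chr3:40745363-40745662) and a Dnajb1 window (chr8:83608298-83608597) lay wholly inside the genes as annotated by GENCODE, so for Hspa4l nothing before the GENCODE start was searched. Only exact GAA and TTC units were searched, so elements with a changed letter in a unit were not counted. A match is a stretch of letters and was not tested for binding. The 250 bases before the RefSeq start are shown for Hsph1, the called member (chr5:149636337-149636586, minus strand), and for Hspa1a, the stress-inducible Hsp70 (chr17:34972157-34972406, minus strand), with pairs in capitals. GENCODE M21 ends Hsph1 at 149636376, so the shown bases from 149636337 to that position, among them the pair at 149636362-149636369, lie before the RefSeq start but inside the gene as annotated by GENCODE. The third line gives the 3-unit element after the start of Hsph1 in capitals (chr5:149636280-149636308, minus strand).
Hsph1: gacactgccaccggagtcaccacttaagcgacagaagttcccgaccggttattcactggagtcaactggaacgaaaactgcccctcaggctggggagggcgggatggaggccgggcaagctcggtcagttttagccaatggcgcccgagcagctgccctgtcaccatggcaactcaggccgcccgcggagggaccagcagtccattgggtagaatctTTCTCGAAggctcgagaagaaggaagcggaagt
Hspa1a: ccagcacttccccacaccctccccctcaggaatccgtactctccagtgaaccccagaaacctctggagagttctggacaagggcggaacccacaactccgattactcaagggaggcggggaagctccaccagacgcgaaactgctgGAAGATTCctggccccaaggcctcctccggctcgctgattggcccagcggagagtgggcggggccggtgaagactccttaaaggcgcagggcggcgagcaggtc
Hsph1 3-unit element: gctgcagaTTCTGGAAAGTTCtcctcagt

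Among genes averaging 50 counts or more, the pattern of log2 CPM around its own mean over the 7 libraries was closest to that of Hsph1 for Il17re, Lcn2, Dct, Ankrd45 and Mal. Their root mean square differences were 0.134, 0.148, 0.165, 0.173 and 0.178, among 12211 genes compared over 7 libraries. No statement on shared function is made. These genes were chosen for their likeness to Hsph1 in the same 7 libraries, so a higher level in A178D follows from the choice. The fold changes and calls below describe them and are no separate support for the Hsph1 difference. Il17re, an interleukin receptor gene, ranged from 0.984 to 2.53 CPM, and Lcn2, the secreted lipocalin 2, from 1.29 to 3.16 CPM, so both were low. Mal, a membrane raft protein, ranged from 26.5 to 30.4 CPM in WT and from 38.2 to 46.5 CPM in A178D, and rose by 0.60 (edgeR adjusted p = 0.00564). Lcn2 rose by 0.93 (adjusted p = 0.0437) and Dct, dopachrome tautomerase, by 0.86 (adjusted p = 0.0115). The call of Dct was lost on leaving out WT replicate 3 (0.0761) and WT replicate 4 (0.0632), and that of Lcn2 on leaving out WT replicate 1 (0.0926), WT replicate 3 (0.175), WT replicate 4 (0.0980), A178D replicate 1 (0.137) and A178D replicate 3 (0.110), with the adjusted p in parentheses. Among the alternatives without a block that kept all libraries, Lcn2 was lost in limma-voom (adjusted p = 0.0599). Ankrd45 (log2 fold change 0.68, adjusted p = 0.0587) and Il17re (0.95, adjusted p = 0.0884) did not pass in edgeR. DESeq2 called both, at an adjusted p of 0.0125 for Ankrd45 and 0.0325 for Il17re. Ankrd45 also passed in edgeR with no filter on low counts (0.0416), with length and GC offsets (0.0473) and without WT replicate 1 (0.0345). Over all alternatives the adjusted p ran from 0.0125 to 0.234 for Ankrd45 and from 0.0325 to 0.255 for Il17re.

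Of the 8 other cytosolic J-domain genes, the 9 genes of nucleotide exchange and turnover and the 5 other Hsp70 family genes, edgeR, DESeq2 and limma-voom each called 0, with 1, 3 and 2 genes respectively at an unadjusted p under 0.05 in edgeR. Over all tested genes edgeR called 1.04% higher and 1.31% lower. In either direction 16.7% passed unadjusted in edgeR, DESeq2 called 5.08% of its genes and limma-voom 2.35%. These shares apply to every list below. Median log2 fold changes were 0.01, -0.03 and -0.001. Their most abundant genes by CPM were Dnaja2 (log2 fold change 0.03), the exchange factor Bag3 (-0.005) and Hspa12b (-0.27), none called. Hspa12b passed without A178D replicate 4 (-0.36, adjusted p = 0.0488) and was at -0.17 without WT replicate 3 (0.563). Of 4 genes of the Hsf family and its regulators 0 were called by edgeR, DESeq2 or limma-voom and 2 passed unadjusted in edgeR, with a median of -0.04 and a log2 fold change of 0.06 for Hsbp1, the most abundant.

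Among 21 Hsp90 co-chaperones edgeR called 0 higher and 1 lower, with a median of 0.07. Of the 21 fold changes 14 were positive, and 7 genes passed unadjusted in edgeR (5 positive and 2 negative). In either direction DESeq2 and limma-voom called 1 each. Over all genes 16.7% passed unadjusted in edgeR, DESeq2 called 5.08% and limma-voom 2.35%. Fnip2, a folliculin partner that slows the ATPase of Hsp90, fell by 0.72 on the log2 scale (SE 0.12, adjusted p = 0.00744), from 28.9 to 35.6 CPM in WT to between 15.5 and 21.9 CPM in A178D. The call was lost on leaving out WT replicate 3 (0.0654), and over the 7 fits that each left out a library the adjusted p ran from 0.00536 to 0.0654. The most abundant, Smyd1, a methyltransferase that works with Hsp90 in myosin assembly, had a log2 fold change of 0.20 (adjusted p = 0.177).

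Among 20 classical heat shock targets, a list that includes 6 of the members, edgeR called 2 higher and 0 lower, Hsph1 and Hspe1, with a median of 0.15 and 16 positive fold changes. In either direction 9 passed unadjusted in edgeR, DESeq2 called 5 and limma-voom 2, beside 16.7%, 5.08% and 2.35% of all genes. The most abundant, Cryab, had a log2 fold change of 0.25 (edgeR adjusted p = 0.0789). DESeq2 called it (adjusted p = 0.0172), and with length and GC offsets it was 0.15 (adjusted p = 0.157), within a range of adjusted p from 0.0172 to 0.281 over all alternatives. Among 7 small heat shock protein genes, holdases that need no ATP, 2 were called higher and 0 lower with a median of 0.29: Hspb6 by 0.31 (adjusted p = 0.0328) and Hspb7, also the most abundant, by 0.29 (adjusted p = 0.0299). Of the 7, in either direction, 6 passed unadjusted, DESeq2 called 4 and limma-voom 2, beside the same 16.7%, 5.08% and 2.35% of all genes. Both calls depended on single hearts. The call of Hspb6 was lost on leaving out WT replicate 3 (0.192), WT replicate 4 (0.123), A178D replicate 1 (0.0986), A178D replicate 2 (0.0690) and A178D replicate 3 (0.0889), and that of Hspb7 on leaving out WT replicate 3 (0.175), WT replicate 4 (0.0903), A178D replicate 1 (0.105) and A178D replicate 2 (0.0694), with the adjusted p in parentheses. With length and GC offsets the adjusted p of Hspb6 was 0.0791. Among 8 mitochondrial chaperone genes 1 was called higher and 0 lower, with a median of 0.09, and 1 passed unadjusted, in DESeq2 and in limma-voom alike. Hspe1, the Hsp10 lid of the mitochondrial chaperonin, rose by 0.38 (edgeR adjusted p = 0.0274) but lost its call on leaving out WT replicate 1 (0.0516), WT replicate 3 (0.158), WT replicate 4 (0.0734), A178D replicate 1 (0.0943) and A178D replicate 3 (0.0740). The most abundant, Hspa9, had a log2 fold change of 0.0033.

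Chaperones of the endoplasmic reticulum gave 0 calls of 14 in edgeR, 3 in DESeq2 and 0 in limma-voom. In edgeR 3 had an unadjusted p under 0.05, 0 of them positive and 3 negative, beside 16.7% of all genes in either direction. The median was -0.04, and Hspa5, the most abundant, had a log2 fold change of -0.02. The cytosolic chaperonin and prefoldin gave 0 calls of 14 in edgeR, 1 in DESeq2, 0 in limma-voom and 1 unadjusted, with a median of 0.10 and a log2 fold change of 0.12 for Tcp1, the most abundant. Over the 93 listed chaperone and co-chaperone genes other than the members, edgeR called 3 higher and 1 lower, with a median of 0.06. The shares over all tested genes were 1.04% and 1.31%. Of the 93, 26 passed unadjusted in edgeR (17 positive and 9 negative), beside 16.7% of all genes in either direction. DESeq2 called 10 and limma-voom 4 in either direction, beside 5.08% and 2.35%.

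**Figure D3:**
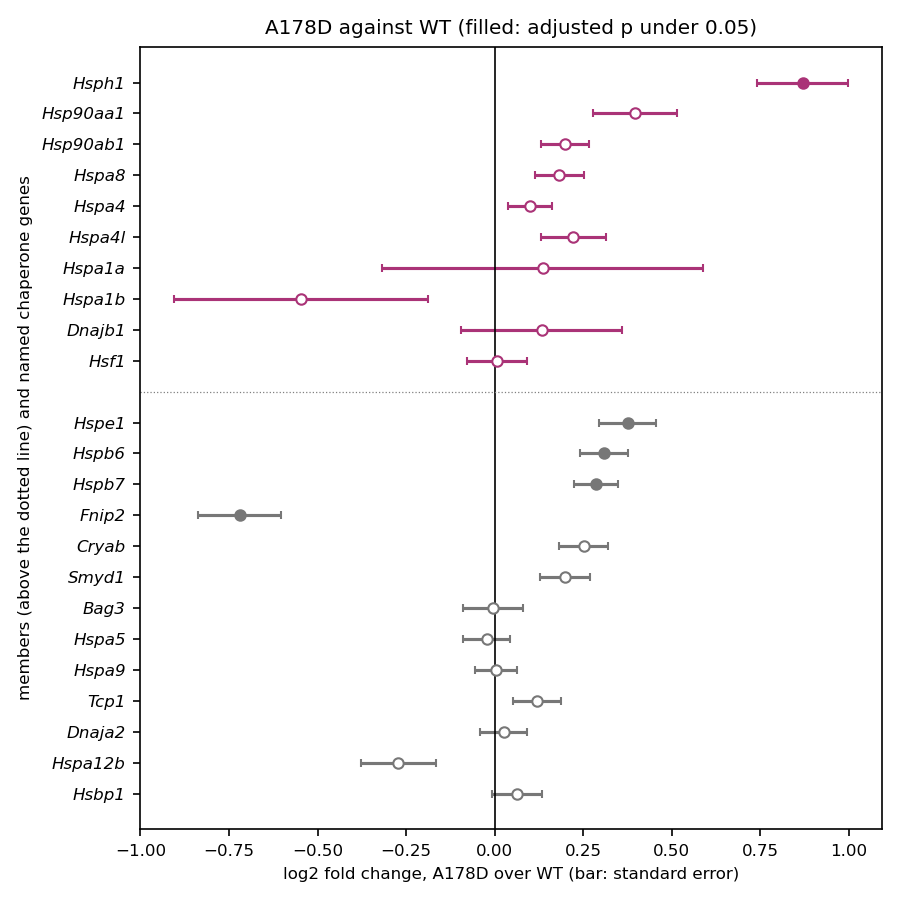
Log2 fold change of A178D over WT with its standard error for the 10 members (purple, above the dotted line) and 13 named chaperone and co-chaperone genes (grey). Filled circles have an edgeR adjusted p under 0.05: Hsph1 at 0.87, Hspe1 at 0.38, Hspb6 at 0.31, Hspb7 at 0.29 and Fnip2 at -0.72.

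Chaperone transcripts vary with time of day, body temperature and handling, so genes that report on these are given beside the members. Of 5 clock genes of the Bmal1 phase 1 was higher, Arntl by 1.77 (edgeR adjusted p = 0.0115), and 1 lower, Cry1, which fell by 0.51, with a list median of 0.21. Of 10 clock genes of the Per phase 0 were higher and 4 lower, with a median of -0.28: Per2 fell by 0.88, Per3 by 0.47, Hlf by 0.42 and Tef by 0.39. Nr1d1, of the same list, went the other way with a log2 fold change of 0.51 that did not pass (edgeR adjusted p = 0.0717). It passed in edgeR without the filter on low counts (0.0330) and without WT replicate 1 (log2 fold change 0.77, adjusted p = 0.000207), and did not in DESeq2 (0.147) or limma-voom (0.0501). In the Bmal1 phase list 3 genes passed unadjusted (1 positive and 2 negative), 2 in DESeq2 and 2 in limma-voom, and in the Per phase list 6 (1 positive, Nr1d1, and 5 negative), 5 and 4. The shares over all genes, in either direction, were 16.7%, 5.08% and 2.35%. Without WT replicate 3 none of the 6 called clock genes was called, with an adjusted p of 0.0823 for Arntl, 0.187 for Cry1, 0.0525 for Per2, 0.0890 for Per3, 0.116 for Hlf and 0.0890 for Tef. Without WT replicate 4 the adjusted p was 0.0761 for Arntl, 0.129 for Cry1, 0.0937 for Per3, 0.149 for Hlf and 0.0873 for Tef. Without A178D replicate 1 it was 0.112 for Cry1, 0.0555 for Per3, 0.0907 for Hlf and 0.0574 for Tef, and without A178D replicate 3 it was 0.0899 for Cry1. The summed level of the Bmal1 phase list ranged from 68.7 to 75.3 CPM in WT and from 62.3 to 87.9 CPM in A178D, with Clock the most abundant. The summed level of the Per phase list ranged from 1182 to 1219 CPM in WT and from 924 to 1120 CPM in A178D, with Tef the most abundant. Cirbp and Rbm3, which are induced by mild cold, had log2 fold changes of -0.02 and -0.06, with 0 of 2 called by edgeR, DESeq2 or limma-voom, 0 at an unadjusted p under 0.05 and a median of -0.04. Their summed level ranged from 116 to 132 CPM in WT and from 111 to 128 CPM in A178D, and Cirbp was the more abundant. The part of time of day in the Hsph1 difference was not tested.

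Of 12 immediate early genes 0 were called by edgeR, DESeq2 or limma-voom and 1 passed unadjusted in edgeR, with a median of 0.07. Fos had a log2 fold change of 0.08 and Atf3 of 0.15. The summed level was 344, 260 and 268 CPM in WT and 195, 316, 336 and 355 CPM in A178D replicates 1 to 4, with Jun the most abundant. The part of handling in the chaperone values was not tested.

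Markers of other cell types are given with their summed levels, and no list was tested as a set. Of 8 smooth muscle and pericyte markers 4 were lower (Acta2, Myh11, Tagln and Cnn1) and 0 higher, with a median of -0.46, and their summed level was 1327, 1358 and 1332 CPM in WT against 1035, 1124, 1194 and 948 CPM in A178D, with Abcc9 the most abundant. Of 8 fibroblast markers 1 was higher (Col3a1, by 0.62) and 0 lower, with a median of 0.12 and sums of 1090 to 1205 CPM in WT and 1277 to 1407 CPM in A178D, Dcn being the most abundant. Of 8 macrophage markers 1 was higher (Lyz2, also the most abundant, by 0.40) and 0 lower, with a median of 0.25 and sums of 285 to 372 and 366 to 408 CPM. Of 3 tested atrial markers of 6 only Nppa was higher and 0 were lower, with a median of 0.65 and sums of 135 to 278 and 348 to 620 CPM, of which Nppa made up 92.3%. Unadjusted in edgeR, 6 smooth muscle markers passed (all negative), 4 fibroblast (all positive), 5 macrophage (4 positive and 1 negative) and 2 atrial (all positive). The negative macrophage marker was Cd163, with a log2 fold change of -0.32 (edgeR adjusted p = 0.288). In the same order and in either direction, DESeq2 called 6, 2, 2 and 1, and limma-voom called 4, 1, 1 and 1. Over all genes 16.7% passed unadjusted in edgeR, DESeq2 called 5.08% and limma-voom 2.35%. Several of the edgeR calls were lost with a library left out. For Myh11 these were WT replicate 3 (0.0501) and WT replicate 4 (0.0547), with the adjusted p in parentheses. For Cnn1 they were WT replicate 1 (0.109), WT replicate 3 (0.0604), WT replicate 4 (0.106), A178D replicate 1 (0.104), A178D replicate 2 (0.0594) and A178D replicate 3 (0.0591). For Col3a1 they were WT replicate 3 (0.113), A178D replicate 1 (0.0840), A178D replicate 2 (0.0672) and A178D replicate 3 (0.0712), and for Lyz2 WT replicate 1 (0.0706), WT replicate 3 (0.0915), WT replicate 4 (0.0786), A178D replicate 1 (0.117) and A178D replicate 2 (0.0621). The part of these cell types in the chaperone values was not tested.

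In the other lists edgeR called 0 genes. For the 9 ventricular cardiomyocyte markers DESeq2 and limma-voom also called 0, 2 passed unadjusted in edgeR, the median was -0.03 and the sum ranged from 101548 to 108591 CPM over all libraries, with Myh6 the most abundant. Endothelial markers (8 tested, median 0.06), adipocyte markers (4 of 5 tested, median -0.31), skeletal muscle markers (5 of 8 tested, median 0.09) and erythrocyte markers (4 of 5 tested, median 0.15) had 0 calls in edgeR, DESeq2 and limma-voom and 0 at an unadjusted p under 0.05 in edgeR. Their summed levels ranged from 3416 to 4186 CPM for endothelium, mostly Cd36. They ranged from 0.372 to 2.09 CPM for adipocytes, with Cfd the most abundant, and from 1557 to 2058 CPM for skeletal muscle, of which Ckm made up 99.8%. For erythrocytes they ranged from 93.9 to 154 CPM, with Hbb-bs the most abundant and Hbb-bt at 0 in all libraries.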

How the data were processed

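RNA was extracted from powdered left ventricles and poly(A) RNA was sequenced as stranded paired-end libraries (TruSeq). According to the submitters' processing notes, bcl2fastq 2.18.0.12, HISAT2 2.1.0, SAMtools 1.6 and DESeq2 1.26.0 were used with build GRCm38. The counting program was not given in the sources used here. The authors deposited raw counts per gene, used for every test here. A signal table, also deposited by the authors, holds those counts divided by size factors of 0.731 to 1.23 and served only to read these factors. Positions and exon lengths were taken from GENCODE M21.

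Of 21257 entries, 442 with at least 30 counts shared all counts with another entry, in 219 sets, and each set was reduced to 1 entry. Below 30 counts, an entry was dropped only if another had the same identifier as well as the same counts. After both steps 20927 entries remained. The counts of Hspa4l were repeated under another identifier and kept once. Low counts were mostly even (17.6 to 20.3% of counts from 1 to 20 were odd), so fragments may have been counted once per end, which leaves ratios but overstates the number of independent counts. Genes reaching 10 counts in 3 or more libraries were tested in R 4.3.3 with edgeR 4.0.16 (TMM, quasi-likelihood test, Benjamini-Hochberg adjusted p under 0.05 over all 13894 genes, common biological coefficient of variation 0.111), tested on simulated data first. Alternatives used DESeq2 1.42.0, limma 3.58.1 (voom), other filters and scalings, length and GC offsets (mgcv 1.9.3), a replicate block, each library left out, and Hspa1a and Hspa1b summed. Each library came from the ventricle of a separate heart, as the study describes.

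The members and gene lists were chosen with earlier results of these data known, so no list was given a p-value. Named genes were all members, called and most abundant genes of the chaperone lists, called clock and immediate early genes with Cirbp, Rbm3, Arntl, Per2, Fos and Atf3, the 5 genes most like each called member, and Acta1 and Nppa. Marker genes named beyond these, and Nr1d1, come from the lists and were chosen after their values were seen, as were the count of separated members in TPM and the trend with exon length in each library. Protein sequences were not used here.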

Additional observations from a re-analysis of the deposited data

Results flagged for a closer look

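In 14 sets of 4 A178D values (10 members and 4 ratios), 2 had a heart so far from the others that its gap over the range exceeded Dixon's critical value. Chance alone flags about 1 in 20 such sets. Hspa1a in A178D replicate 4 stood at 3.71 CPM, while the other A178D hearts ranged from 0.991 to 1.38 CPM (gap over range 0.856). The ratio of Hsp90aa1 to Hsp90ab1 in A178D replicate 1 was 0.0606, against 0.0421 to 0.0430 in the other A178D hearts (gap over range 0.951).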

How the results depend on the processing

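Hsph1 stayed called in all 18 alternatives, 7 of which left out a library. The number of members called higher was 2 in DESeq2, with the replicate block and with length and GC offsets, 3 with the replicate block and offsets together, and 1 to 2 with a library left out. The additions were Hsp90aa1 and Hspa4l. Hsp90aa1 had a log2 fold change of 0.47 and an adjusted p of 0.0109 with the replicate block. Of the other called genes named, Acta1, Mal, Acta2 and Tagln stayed called in all 7 fits that left out a library. The replicate block ended the calls of Hspb6 (adjusted p = 0.0755), Hspb7 (0.0820) and Lcn2 (0.0608), as did block and offsets together (0.129, 0.0850 and 0.0783), which added Ankrd45 (0.0492). Nr1d1 passed with the block (0.0175) and with block and offsets (0.0237). The replicate numbers did not pair the hearts (correlations of same-numbered hearts 0.003, -0.040 and -0.042, and every WT heart correlated best with an A178D heart of another number), so the block was kept as an alternative. No member was called lower in any alternative. Members with every A178D library above every WT library numbered 5 in CPM and 2 in TPM, a scaling tried after the data were seen. Over all tested genes, those called higher numbered 289 in DESeq2, 221 with offsets, 124 with the replicate block and 189 with block and offsets. With a library left out they numbered 22 to 215. Genes called lower numbered 377 in DESeq2, 261 with offsets, 147 with the replicate block and 182 with block and offsets. They numbered 31 to 238 with a library left out. Of the other listed chaperone genes 6 were higher and 4 lower in DESeq2, 5 were higher without the filter on low counts, 3 were lower with offsets, 5 were higher with block and offsets, and 0 to 4 were higher and 0 to 2 lower with a library left out. The cause was not tested, except that leaving out a heart leaves fewer samples.

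Uncalled fold changes changed sign as follows. Hspa1a was -0.050 in limma-voom, -0.20 when summed with Hspa1b, and -0.47 to 0.65 with a library left out. Hsf1 was -0.00065 in limma-voom. With length and GC offsets Dnaja2 was -0.0071, Hsbp1 -0.018 and Hspa9 -0.00092, and without the filter on low counts Hspa9 was -0.00033. With the replicate block Hspa5 was 0.011 and Fos -0.018. With block and offsets Hsbp1 was -0.020, Hspa5 0.0030, Fos -0.094 and Atf3 -0.025. With a library left out the ranges, sign changes or not, were -0.12 to 0.40 for Dnajb1, -0.052 to 0.045 for Hsf1, -0.00019 to 0.053 for Dnaja2, -0.063 to 0.089 for Bag3, -0.045 to 0.014 for Hspa5, -0.0080 to 0.018 for Hspa9, 0.021 to 0.11 for Hsbp1, -0.080 to -0.032 for Rbm3, -0.075 to 0.063 for Cirbp, -0.20 to 0.71 for Fos and -0.079 to 0.34 for Atf3. Hspa1a and Hspa1b had low counts, and the part of this in the spread of their values was not tested.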
